A study of Mus musculus with 12 samples.

Results

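The 7 genes described here are Hmgcs1, Idi1, Fdft1, Sqle, Msmo1, Ebp and Insig1, grouped as cholesterol synthesis and uptake genes. They were matched by symbol to probe sets that name a single gene, taking the brightest probe set of a gene over the 12 arrays, and all 7 were found among the 16426 named genes on the table. All 7 also passed the filter on dim probe sets, which left 8918 genes for testing. Hmgcs1, Idi1, Fdft1, Sqle, Msmo1 and Ebp encode enzymes that make cholesterol, and Insig1 encodes the protein that restrains their transcription. None of the 7 encodes a protein that takes cholesterol up, so they are called sterol synthesis genes below.

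RNA came from 6 groups of mouse CD4+ T cells, with 2 Affymetrix Mouse Gene ST 1.0 arrays each. The Treg groups were DAPI- CD4+ CD25high regulatory T cells (Tregs), sorted in 2 rounds from the spleens of mice with the genotype Foxp3(M354/M354), Foxp3(M176/M176) or Foxp3(WT/WT), called M354, M176 and WT Tregs here. The transduced groups were conventional CD4+ T cells of WT origin into which a retrovirus had brought M354, M176 or WT Foxp3 in culture, sorted for high Thy1.1, so that their own Foxp3 locus was WT in every group. All mice were male C57Bl/6 animals 6 weeks old, and no transduction without Foxp3 was among the samples. What amino acid changes the names M354 and M176 stand for is not stated in the sources used here. It is not stated whether the 2 arrays of a group represent different mice or cultures, so the p-values cover only the spread among these arrays, which can be technical.

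Cholesterol is made from acetyl-CoA through mevalonate, isoprenoids and squalene. When sterols in the endoplasmic reticulum run low, the transcription factor SREBP-2 (Srebf2) is escorted by Scap to the Golgi, cut by proteases and sent to the nucleus, where it raises the genes of the whole pathway together. INSIG1 holds Scap and SREBP-2 back when sterols are plentiful, and its own gene is an SREBP target, which closes a feedback loop. T cells raise this programme on activation to build membranes, and in mouse Tregs the mevalonate pathway has been tied to mTORC1 signalling and suppressive function.

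Because the genes are known targets of SREBP-2, their promoters were read from RefSeq (GRCm38.p6), as the 250 bases before and the 50 bases after the start of each transcript. Windows were matched for 5 of the 7 genes, Hmgcs1, Idi1, Msmo1, Ebp and Insig1. Both strands were searched for CACNCCAC, a core of sterol regulatory elements, and for CCAAT, the box of the NF-Y cofactor. These motifs share no bases in the windows shown, in which capitals mark both of them on either strand.
Hmgcs1: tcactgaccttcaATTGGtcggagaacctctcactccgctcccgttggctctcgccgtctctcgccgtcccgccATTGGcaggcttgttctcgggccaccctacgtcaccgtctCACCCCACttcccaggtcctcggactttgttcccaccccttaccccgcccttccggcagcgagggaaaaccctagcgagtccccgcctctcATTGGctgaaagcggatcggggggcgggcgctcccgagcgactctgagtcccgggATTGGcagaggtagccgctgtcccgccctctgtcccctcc
Msmo1: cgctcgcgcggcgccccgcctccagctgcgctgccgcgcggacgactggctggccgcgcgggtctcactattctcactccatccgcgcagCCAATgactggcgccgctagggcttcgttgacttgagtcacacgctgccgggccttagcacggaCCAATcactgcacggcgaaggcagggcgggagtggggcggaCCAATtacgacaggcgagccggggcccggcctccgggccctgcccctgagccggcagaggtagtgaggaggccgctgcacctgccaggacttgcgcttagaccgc
Insig1: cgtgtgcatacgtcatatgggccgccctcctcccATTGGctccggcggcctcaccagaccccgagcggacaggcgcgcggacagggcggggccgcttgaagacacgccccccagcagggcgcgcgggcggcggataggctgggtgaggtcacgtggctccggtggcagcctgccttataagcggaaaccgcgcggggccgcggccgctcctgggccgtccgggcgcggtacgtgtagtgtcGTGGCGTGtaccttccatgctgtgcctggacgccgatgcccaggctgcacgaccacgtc
The Hmgcs1 window (chr13:119690101-119690400, plus strand) held the sterol core once, 136 to 129 bases before the start, and 4 CCAAT boxes. The Insig1 window (chr5:28071162-28071461, plus strand) also held it once, on the minus strand 9 to 2 bases before the start, with 1 CCAAT box. The Msmo1 window (chr8:64733529-64733828, minus strand) held 3 CCAAT boxes and no match to the core. The core was found in 2 of the 5 windows and CCAAT in all 5, against 6.2% and 37.4% of 32851 mouse promoter windows of the same length. GGGCGG, the GC box of Sp1, was also in all 5, against 35.7% of all windows. Among 40 other genes of sterol and fatty acid metabolism with a window, 1 held the core, 23 held CCAAT and 27 held the GC box. A match describes the letters and is no evidence of binding.

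The arrays differed in ways that bear on the comparisons. Foxp3 intensity was 5991 and 5485 in M354 Tregs, 3442 and 3321 in M176 Tregs and 5913 and 5327 in WT Tregs, and between 5233 and 6163 on the 6 arrays of transduced cells. Foxp3 was thus lower in M176 Tregs than in WT Tregs (log2 difference -0.73 ± 0.13 SE, adjusted p = 0.000552), while a probe set reading its RNA does not show which allele a cell carries. The mean log2 intensity of 36 small nucleolar and Cajal body RNAs was 9.98 to 10.04 on the M176 Treg arrays, against 8.66 to 8.87 on the other Treg arrays and 8.61 to 9.64 on those of transduced cells. The summed intensity of 14 proliferation genes was 10110 to 12370 in M354 Tregs, 6097 to 6414 in M176 Tregs and 7616 to 9046 in WT Tregs, and 14220 to 22260 in transduced cells. The 6 CD4 T cell markers on the table summed to 27920 to 29590 in M354 Tregs, 24710 to 25940 in M176 Tregs and 27850 to 28750 in WT Tregs. In transduced cells they summed to 28960 to 30520. Between M176 and WT Tregs 1 of the 6 was called higher and 1 lower, where 24.7% of all genes were called. The 8 Treg markers summed to 29330 to 29780 in M354 Tregs, 23430 to 24140 in M176 Tregs and 31950 to 34240 in WT Tregs. Of the 8, 6 were called lower in M176 than in WT Tregs (median log2 difference -0.49), where 1010 of the 8918 genes tested were called lower. In transduced cells they summed to 21360 to 22640 with M354, 25620 to 25710 with M176 and 30200 to 31500 with WT Foxp3. The 10 B cell markers summed to 2230 and 4595 on the first and second WT Treg arrays, against 2008 to 2425 on the 4 mutant Treg arrays and 4170 to 4703 in transduced cells. The 5 CD8 T and NK cell markers summed to 631 to 871 in Tregs, and to 1813 to 1832 in M354-transduced, 1594 to 1596 in M176-transduced and 1470 to 1471 in WT-transduced cells. The 4 myeloid markers on the table, background level included, summed to 236 to 313 over all 12 arrays. In sorted bulk cells, fewer cells of a type and less RNA per cell cannot be told apart.

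**Figure D1:**
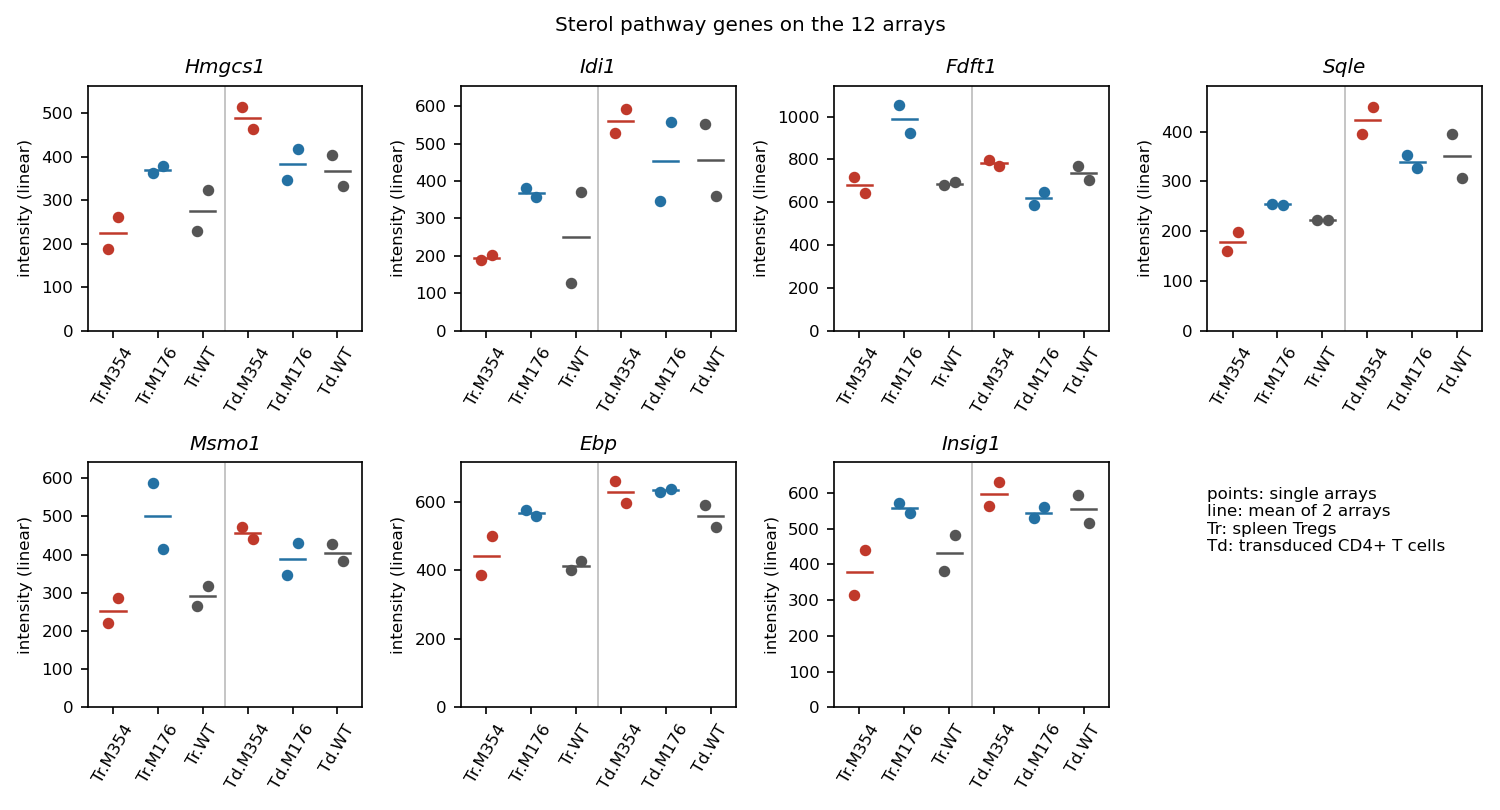
Linear intensity of each of the 7 sterol synthesis genes (vertical axes, from 0) on the 12 arrays, with M354, M176 and WT groups of Tregs (Tr) left and of transduced cells (Td) right; points are single arrays and lines are means of 2 arrays. In Tregs the M354 arrays lie below the M176 arrays for all 7 genes.

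The clearest difference was between the mutants in Tregs. Relative to M176 Tregs, M354 Tregs had lower RNA of 6 of the 7 genes (Msmo1, Idi1, Hmgcs1, Insig1, Fdft1 and Sqle), by 1.43-fold to 1.97-fold. The remaining gene, Ebp, was 1.29-fold lower with an adjusted p of 0.0522. Both M354 arrays were below both M176 arrays for all 7 genes. Of all genes tested, 30.8% were called in either direction, 18.1% were called lower and 37.1% had both M354 arrays below both M176 arrays. The calls split into 1129 higher and 1618 lower in M354 Tregs, and into 1584 and 1442 after quantile normalization. The median log2 difference was -0.58 over the 7 genes and -0.02 over all genes. The 7 genes were chosen with earlier results of these data known, so their counts beside these shares are no test of the pathway. Of 9 other sterol synthesis genes tested, 1 was called lower.

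The mean of WT Tregs lay between those of the mutants for 6 of the 7 genes, Ebp being the exception, and nearer to M354 Tregs for 5 of these 6. Relative to WT, M176 Tregs had higher RNA of 3 genes (Msmo1, Fdft1 and Ebp), with a median of 0.46 over the 7 and -0.04 over all genes. Both M176 arrays were above both WT arrays for 6 of the 7, Idi1 being the exception. In that comparison 24.7% of all genes were called, 13.4% were called higher and 30.3% had both M176 arrays above. These calls were 1196 higher and 1010 lower, and 1124 and 1448 after quantile normalization. Relative to WT, M354 Tregs had 0 of the 7 called by limma, with 1.81% of all genes called. Sqle alone had an unadjusted p under 0.05 there, and the median was -0.21 over the 7 genes and -0.05 over all genes.

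At the entry of the pathway, HMGCS1 joins acetyl-CoA and acetoacetyl-CoA into HMG-CoA. Hmgcs1 had intensities of 187 and 261 in M354 Tregs, 362 and 379.8 in M176 Tregs and 228 and 323 in WT Tregs. Both M176 values were the highest of the 6, and the M354 and WT arrays overlapped. The log2 difference between M354 and M176 was -0.75 ± 0.18 (SE, adjusted p = 0.00527), against 0.45 ± 0.18 between M176 and WT (adjusted p = 0.0795) and -0.30 ± 0.18 between M354 and WT (adjusted p = 0.62). IDI1 interconverts the isoprenoid building blocks that are then joined into farnesyl diphosphate. Idi1 had 189 and 202 in M354 Tregs, 380.3 and 356 in M176 Tregs and 128 and 372 in WT Tregs. The WT arrays of Idi1 spanned nearly the whole range of the other Treg arrays, which the other 6 genes did not show. Idi1 was lower in M354 than in M176 Tregs by a log2 difference of -0.91 ± 0.33 (SE, adjusted p = 0.045), a call that held under 12 of 21 alternatives and not under quantile or cyclic loess normalization. Its difference between M176 and WT, 0.75 ± 0.33 (adjusted p = 0.105), was -0.01 without the first WT array.

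FDFT1 (squalene synthase) makes squalene from farnesyl diphosphate, the step that commits the pathway to sterols, and SQLE then adds the oxygen that allows the rings to close. Fdft1 had intensities of 716 and 645 in M354 Tregs, 1055 and 925 in M176 Tregs and 679 and 693 in WT Tregs. The M176 arrays stood apart, and the M354 arrays lay on both sides of the WT arrays. Fdft1 differed by -0.54 ± 0.13 between M354 and M176 (log2, SE, adjusted p = 0.00469) and by 0.53 ± 0.13 between M176 and WT (adjusted p = 0.00687). Between M354 and WT it differed by -0.01 ± 0.13, which changed sign under quantile and cyclic loess normalization (0.04 and 0.07). A second Fdft1 probe set gave -0.67, 0.57 and -0.11 for the same 3 differences. Sqle had 160.2 and 198 in M354 Tregs, 256 and 252 in M176 Tregs and 222.1 and 222.5 in WT Tregs. It was the gene with the tightest WT arrays, and its 3 Treg groups did not overlap. Sqle was lower in M354 than in M176 Tregs by a log2 difference of -0.51 ± 0.15 (SE, adjusted p = 0.0145), while M176 and WT differed by 0.19 ± 0.15 (adjusted p = 0.366) and M354 and WT by -0.32 ± 0.15 (adjusted p = 0.426).

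Late in the pathway, MSMO1 takes part in removing methyl groups from the sterol rings and EBP shifts a double bond within them. Msmo1 had intensities of 220.0 and 285 in M354 Tregs, 587 and 415 in M176 Tregs and 266 and 318 in WT Tregs. It had the largest fold of the 7 genes between the mutants, and its 2 M176 arrays were farther apart than those of the other 6 genes. Msmo1 was lower in M354 than in M176 Tregs by -0.98 ± 0.18 (log2, SE, adjusted p = 0.000576) and higher in M176 than in WT Tregs by 0.76 ± 0.18 (adjusted p = 0.00477). Ebp had 386 and 500.0 in M354 Tregs, 577 and 559.8 in M176 Tregs and 401 and 426 in WT Tregs. M176 arrays were again the highest, and the M354 arrays enclosed the WT arrays. Ebp was higher in M176 than in WT Tregs by 0.46 ± 0.14 (log2, SE, adjusted p = 0.0232), a call lost without any single one of the 4 arrays compared.

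The gene of the pathway's brake differed between the mutants in the same direction as the enzyme genes described here. Insig1 had intensities of 316 and 440.0 in M354 Tregs, 571 and 543 in M176 Tregs and 382 and 483 in WT Tregs. Both M176 arrays were above the other 4, and M354 and WT overlapped. Insig1 was lower in M354 than in M176 Tregs by -0.58 ± 0.16 (log2, SE, adjusted p = 0.0124), or by -0.34 without the first M354 array (adjusted p = 0.207), and its difference between M176 and WT was 0.37 ± 0.16 (adjusted p = 0.0999).

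These counts rested partly on single arrays. Between M354 and M176 Tregs, 2 of the 7 genes were called without the first M354 array and 2 without the first M176 array. Between M176 and WT Tregs, 0 were called without the first M176 array and 1 without the first WT array. With the level of small nucleolar and Cajal body RNAs as a covariate, 1 gene (Sqle) was called between the mutants and 0 between M176 and WT. The log2 differences of the 7 genes between the mutants then ran from -0.85 for Sqle (-0.51 without the covariate) to -0.28 for Ebp, with -0.78 for Msmo1, and those between M176 and WT from 0.24 for Hmgcs1 to 0.66 for Idi1, none with its direction turned. Over all genes the covariate left 570 calls between the mutants in place of 2747, and 364 between M176 and WT in place of 2206. That RNA class was itself called lower in M354 than in M176 Tregs for 24 of 36 members, against 18.1% of all genes. It set the M176 Treg arrays apart, so that its level and the M176 genotype in Tregs cannot be told apart. The parts of the Treg markers and of the proliferation genes in these differences were not tested. Of the 14 proliferation genes, 9 were called higher and 0 lower in M354 than in M176 Tregs, where 1129 of the 8918 genes tested were called higher.

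**Figure D2:**
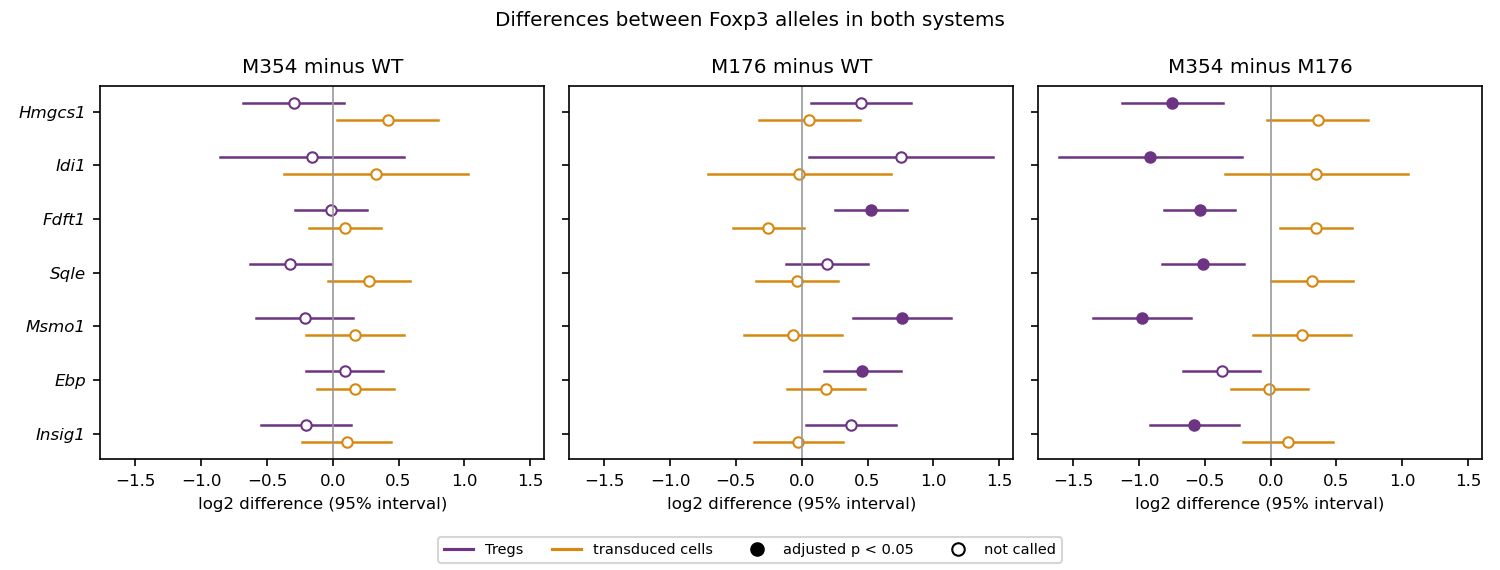
Log2 differences of the 7 sterol synthesis genes (horizontal axes, with 95% intervals) for M354 minus WT, M176 minus WT and M354 minus M176, in Tregs (purple) and in transduced cells (orange); filled points passed the adjusted p threshold of 0.05. In the panel of M354 against M176, Treg values lie between -0.98 and -0.37 and those of transduced cells between -0.01 and 0.36.

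In transduced cells none of the 7 genes was called between any pair of alleles. The M354-transduced cells had the highest mean for 6 of the 7, Ebp being the exception. Relative to WT-transduced cells, M354-transduced cells had differences above 0 for all 7 genes, from 0.09 to 0.42, with a median of 0.17 against 0.01 over all genes. By limma 0 of the 7 were called, 1 had an unadjusted p under 0.05 (Hmgcs1), and 1.33% of all genes were called. M176-transduced and WT-transduced cells differed by a median of -0.02 (-0.01 over all genes), with 0 of the 7 called by limma, 0 with an unadjusted p under 0.05, and 0.516% of all genes called. Between M354-transduced and M176-transduced cells the median was 0.31 (0.02 over all genes). There 0 of the 7 were called by limma, 2 had an unadjusted p under 0.05 (Fdft1 and Sqle), and 0.0785% of all genes were called. For 5 of the 7 both M354 arrays were above both M176 arrays, as they were for 20.1% of all genes.

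Hmgcs1 had intensities of 515 and 464 in M354-transduced cells, 348 and 418 in M176-transduced cells and 403 and 333 in WT-transduced cells. The M354 arrays were above the other 4, and the difference between M354 and WT was 0.42 (95% interval 0.03 to 0.80, adjusted p = 0.385). Sqle had 396 and 449 in M354-transduced cells, 353 and 327 in M176-transduced cells and 395 and 306 in WT-transduced cells. Its lower M354 array lay just above the higher WT array. For Idi1, values were 528 and 594 in M354-transduced cells, 348 and 557 in M176-transduced cells and 551 and 360.1 in WT-transduced cells, and all 3 groups overlapped. In M354-transduced cells Fdft1 had 798 and 771, against 587 and 649.8 in M176-transduced and 771 and 703 in WT-transduced cells. The 2 M176 arrays were the lowest, with a log2 difference between M176 and WT of -0.25 (95% interval -0.53 to 0.02, adjusted p = 0.883).

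Among the late enzymes, Msmo1 had 471 and 442 in M354-transduced cells, 348 and 431 in M176-transduced cells and 427 and 384 in WT-transduced cells. Ebp had 661 and 598 in M354-transduced cells, 628 and 639 in M176-transduced cells and 590.1 and 528 in WT-transduced cells. Both genes overlapped between M176 and one of the other groups. For Insig1, intensities were 563 and 631 in M354-transduced cells, 529 and 562 in M176-transduced cells and 595 and 516 in WT-transduced cells. Its M354 and WT arrays overlapped. The 95% intervals of M354 against WT in transduced cells ran from 0.03 to 0.80 for Hmgcs1 and from -0.37 to 1.03 for Idi1. The Treg values of that difference lay below these intervals for Hmgcs1 (-0.30), Sqle and Msmo1. They lay within them for Idi1 (-0.16), Fdft1, Ebp and Insig1. These intervals leave out the spread of the Treg values. By the limma test of the difference between the systems, adjusted p was 0.345 for Hmgcs1, 0.311 for Sqle and 0.743 for Msmo1. The proliferation genes summed to 20040 to 22260 in M354-transduced cells, 14220 to 15510 in M176-transduced cells and 14960 to 16840 in WT-transduced cells. Of the 8 Treg markers, 5 were called lower with M354 than with WT Foxp3, where 87 of the 8918 genes tested were called lower. The part of either list, and of the CD8 T and NK cell markers, in the levels of the 7 genes was not tested.

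The contrast between the mutants had opposite signs in Tregs and transduced cells for 6 of the 7 genes, and was negative in both for Ebp. The difference between the systems in this contrast was tested after those values had been seen. It was below 0 for 5 genes that passed the threshold, in a comparison where 17.8% of all genes were called and 11.8% were called in that direction (540 above and 1048 below 0, or 852 and 850 after quantile normalization). The values were -1.22 ± 0.25 for Msmo1 (log2, SE, adjusted p = 0.00334), -1.11 ± 0.26 for Hmgcs1 (0.00758), -0.88 ± 0.18 for Fdft1 (0.00345), -0.83 ± 0.21 for Sqle (0.0121) and -0.71 ± 0.23 for Insig1 (0.0411), which was -0.47 without the first M354 Treg array. The Insig1 call held under 10 of 20 alternatives and not under quantile or cyclic loess normalization. Idi1 had the largest value, -1.26 ± 0.47, with an adjusted p of 0.0707, and Ebp the smallest, -0.36 ± 0.20, with an adjusted p of 0.218. Without the first M354 Treg array 2 of the 7 passed, without the first M176 Treg array 3 passed, and with the small nucleolar RNA level as a covariate 1 passed.

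Taken against WT, the effect of each allele could also be compared between the systems. The effect of M176 was larger in Tregs for Fdft1 (difference 0.78 ± 0.18 log2, SE, adjusted p = 0.0187), which was 0.53 in Tregs and -0.25 in transduced cells. It was the only one of the 7 called, where 5.49% of all genes were called and 4.03% were called above 0 (359 above and 131 below, or 322 and 221 after quantile normalization), and Msmo1 had 0.83 ± 0.25 with an adjusted p of 0.0603. The count was 0 without the first M176 Treg, WT Treg, M176-transduced or WT-transduced array, 2 without the second M176 Treg or WT Treg array, and 0 with the small nucleolar RNA covariate. For M354, 0 of the 7 were called by limma, 2 had an unadjusted p under 0.05 (Hmgcs1 and Sqle), and 1.08% of all genes were called. The median of that difference was -0.39 over the 7 genes and -0.07 over all genes.

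WT Tregs had lower RNA of 4 of the 7 genes than WT-transduced cells. The log2 differences were -1.03 ± 0.33 for Idi1 (SE, adjusted p = 0.0263), -0.65 ± 0.15 for Sqle (0.00327), -0.48 ± 0.18 for Msmo1 (0.0493) and -0.43 ± 0.14 for Ebp (0.0261). The Idi1 difference was -0.26 without the first WT Treg array (adjusted p = 0.511) and -1.80 without the second. The Msmo1 call held under 6 of 20 alternatives, and after quantile normalization Msmo1 was at -0.32 and Ebp at -0.27. Of all genes 30.2% were called, 19.4% were called lower in WT Tregs, and 39.1% had both Treg arrays below both transduced arrays, as 6 of the 7 did. The calls were 968 higher and 1728 lower, and 1302 and 1307 after quantile normalization. The exception was Idi1, called although its arrays overlapped. Fdft1 differed by -0.10 with the probe set used, -0.41 with its second probe set, and 0.05 and 0.02 after quantile and cyclic loess normalization. The median of all genes was -0.08 here and 0.03 after quantile normalization, under which 1 of the 7 genes was called, as under cyclic loess. The count was 1 without the first WT Treg array and 0 without the first WT-transduced array. Spleen sorting and culture with a retrovirus differ between these samples along with the cell type, and cannot be told apart. Of the marker lists, 12 of 14 proliferation genes, 3 of 3 tested CD8 T and NK cell markers (median -2.13) and 5 of 10 B cell markers (median -0.75) were also called lower in WT Tregs. Of the 10 B cell markers, 1 was called higher. The part of these lists in the result was not tested.

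**Figure D3:**
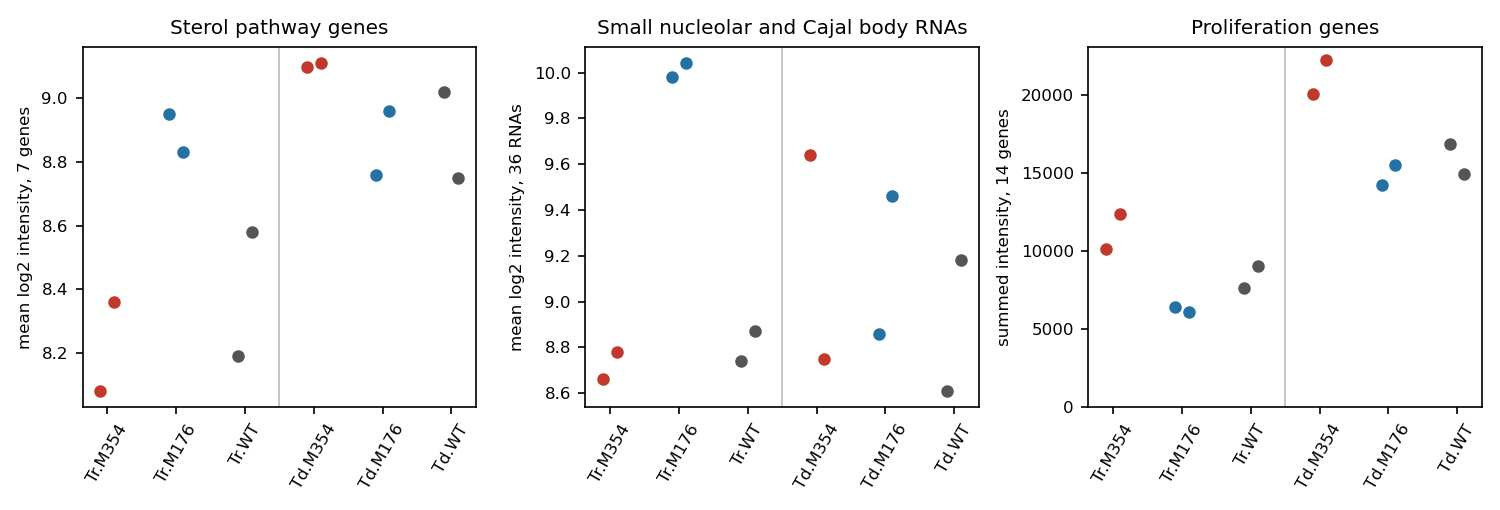
Mean log2 intensity of the 7 sterol synthesis genes (left), mean log2 intensity of 36 small nucleolar and Cajal body RNAs (middle) and summed linear intensity of 14 proliferation genes (right) on each of the 12 arrays; Tregs (Tr) are left and transduced cells (Td) right in each panel. M176 Tregs are highest of the Tregs in the first 2 panels and lowest in the third.

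The 7 genes varied together over the arrays. Their mean log2 intensity was 8.08 and 8.36 in M354 Tregs, 8.83 to 8.95 in M176 Tregs and 8.19 and 8.58 in WT Tregs. In transduced cells it was 9.10 to 9.11 with M354, 8.76 to 8.96 with M176 and 8.75 to 9.02 with WT Foxp3. The 21 pairs of genes had Pearson correlations from 0.05 to 0.94 over the 12 arrays (median 0.82), from 0.56 to 0.98 over the 6 Treg arrays (median 0.83) and from -0.07 to 0.90 over the 6 transduced arrays (median 0.64). These are descriptions, since the genes share arrays and groups. Against the mean of the other 6, r was 0.97 for Hmgcs1, 0.96 for Insig1 and 0.82 to 0.89 for Msmo1, Idi1, Ebp and Sqle. Fdft1 followed the others least, at 0.31 over 12 arrays.

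Shared variation was also visible between the 2 arrays of a group. In WT Tregs the second array was the higher one for all 7 genes, and in WT-transduced cells the first array was higher for all 7. In M354 Tregs the second array was higher for 6 genes, Fdft1 being the exception. In M176 Tregs the first was higher for 6, Hmgcs1 being the exception. The second WT Treg array was also the one with the higher B cell marker sum, and the part of those markers in the level of the 7 genes was not tested.

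Ordered by mean intensity, M354-transduced cells were the highest of the 6 groups for Hmgcs1, Idi1, Sqle and Insig1. M176 Tregs were highest for Fdft1 and Msmo1, and M176-transduced cells for Ebp. M354 Tregs were lowest for 5 genes, WT Tregs for Ebp and M176-transduced cells for Fdft1. Of the 35 pairs of groups next to each other in these orders, 13 had arrays that did not overlap and 22 overlapped. For Idi1 no neighbours were separate, and for Sqle 4 of 5 were. M354 Tregs and WT Tregs were neighbours for all 7 genes and were separate for Sqle only.

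The non-member genes with the profile most like the mean of the 7 over the 12 arrays were Zfp639, Phf10, Sod2, Yipf4 and Galnt1, with r of 0.97 to 0.99. Sod2, which encodes the mitochondrial superoxide dismutase, had intensities of 558 and 668 in M354 Tregs, 891 and 938 in M176 Tregs and 607 and 708 in WT Tregs. None of the 5 belongs to the sterol pathway lists.

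The rest of the pathway was followed in lists of 55 further genes for sterol synthesis, sterol sensing, uptake, esterification and efflux, fatty acid synthesis and other isoprenoid branches. Of these, 39 were matched and 37 were tested, and the others were not analysed here. Between M354 and M176 Tregs, 7 of the 37 were called lower and 1 higher, with a median of -0.16, where 18.1% of all genes were called lower and 30.8% in either direction. The share of the lists that was called lower is thus close to that of all genes, and the share called in either direction is below it. Among the 9 other sterol synthesis genes, 1 was called: Sc5d, a late-step desaturase, at -0.43 ± 0.14 (log2, SE, adjusted p = 0.032), held under 17 of 21 alternatives and at -0.23 without the first M354 array. Cyp51 differed by -0.31 and Fdps by -0.30 without passing. Over the 9 genes the differences ran from -0.43 to 0.14 (median -0.24), 8 below 0 and 1 above. Srebf2 itself differed by -0.28 (adjusted p = 0.126).

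Of the 6 tested genes of uptake and its brakes, 3 were called lower in M354 than in M176 Tregs, against the 18.1% of all genes. Npc2, which carries cholesterol out of lysosomes, had 508 and 482 in M354 Tregs, 916 and 866 in M176 Tregs and 681 and 573 in WT Tregs (M354 against M176 -0.85 ± 0.13, adjusted p = 0.000131). Lipa, the lysosomal lipase that frees cholesterol from its esters, differed by -0.69 ± 0.16 (adjusted p = 0.00454). Mylip, a ubiquitin ligase that limits cholesterol uptake, differed by -0.60 ± 0.12 (adjusted p = 0.00163). Outside the sterol lists, the acetyl-CoA synthetase gene Acss2, the elongase gene Elovl5 and the farnesyltransferase subunit gene Fntb were called lower, at -0.56, -0.45 and -0.60. Elovl5 was at -0.27 and no longer called after quantile normalization, and with the small nucleolar RNA covariate the 3 values were -0.86, -0.21 and -1.20. The desaturase gene Scd2 was called higher, at 0.72 ± 0.14 (adjusted p = 0.00097). With that covariate the calls of Lipa, Elovl5 and Scd2 were lost, and those of Npc2, Mylip, Acss2 and Fntb were kept.

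Against WT, both Treg mutants had lower Abca1, the cholesterol exporter, and lower Elovl6, a fatty acid elongase. Abca1 had 206 and 219 in M354 Tregs, 161 and 184 in M176 Tregs and 301 and 346 in WT Tregs. The differences were -0.60 ± 0.14 for M354 (log2, SE, adjusted p = 0.0299) and -0.91 ± 0.14 for M176 (adjusted p = 0.00021). Elovl6 had 266 and 230.3 in M354 Tregs, 231 and 232 in M176 Tregs and 398 and 393 in WT Tregs, with differences of -0.68 and -0.78 (adjusted p = 0.0145 and 0.00077). Both comparisons share the WT arrays. M176 Tregs also had higher Npc2 (0.51) and lower Scd2 (-0.47) and Mbtps1 (-0.40), the protease that first cuts SREBPs, whose call held under 12 of 21 alternatives. With the small nucleolar RNA covariate, Abca1, Elovl6, Npc2, Scd2 and Mbtps1 were all no longer called in M176 Tregs against WT. Elovl6 and Mbtps1 were then at -0.39 and -0.15. The Abca1 call in M354 Tregs was lost without any single one of the 4 arrays compared. In transduced cells Elovl6 was the only gene of the lists called, lower with M354 than with WT Foxp3 (-0.62 ± 0.14, adjusted p = 0.0311), a call that held under 14 of 21 alternatives. It was lost when the transduced arrays were fitted alone, with the covariate, and without the first M354-transduced array, either WT-transduced array or either M176 Treg array.

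WT Tregs and WT-transduced cells differed for 11 of the 37 listed genes, 9 lower and 2 higher in Tregs, a share close to the 30.2% of all genes called. The fatty acid list held 5 of the lower ones, led by Elovl6 at -1.54 ± 0.14 (log2, SE, adjusted p = 2.61e-07) and Fads2 at -0.72 ± 0.15 (adjusted p = 0.00143), or -0.44 with 50 added to the intensities. Npc2 (-0.97), Stard4 (-0.79), a carrier of sterols between membranes, and Fdps (-0.64), the farnesyl diphosphate synthase gene, were lower as well. Abca1 was higher in WT Tregs, at 1.03 ± 0.14 (adjusted p = 2.44e-05), and so was Dhcr7, which catalyses a last step of cholesterol synthesis, at 0.39 ± 0.14 (adjusted p = 0.0401), which held under 14 of 20 alternatives.

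**Figure D4:**
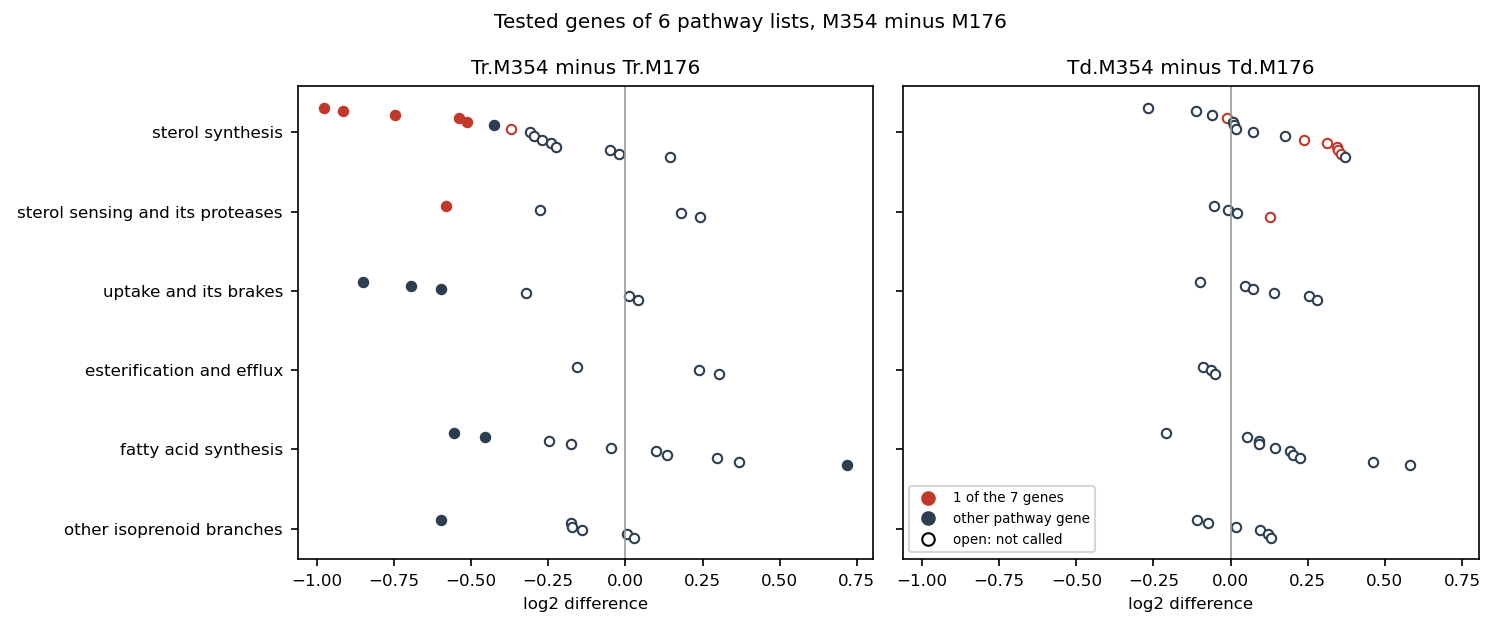
Log2 difference of M354 minus M176 (horizontal axes, same scale) for the tested genes of 6 lists, in Tregs (left) and in transduced cells (right); red points are the 7 genes described here, dark points the other 37, and filled points passed the adjusted p threshold of 0.05. In Tregs the red points lie from -0.98 to -0.37, and in transduced cells 0 points of either colour passed.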

How the data were processed

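Expression was measured on 12 Affymetrix Mouse Gene ST 1.0 arrays, 2 in each of 6 groups taken from the sample titles. The authors used Affymetrix Power Tools and RMA, per the submitters' processing notes, to correct background, align arrays and summarise probes. The values they deposited are linear intensities for 20716 probe sets, of which 17703 name 1 gene. The genome build and software versions are not stated in the sources used here. An array has no depth, and the number of arrays limits the precision. Where a gene had more than 1 such probe set (734 genes), the brightest stood for it. Testing required an intensity above the array's own median on at least 2 arrays.

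The log2 intensities went into limma 3.58.1 (R 4.3.3), with 1 mean per group, all 12 arrays and 6 residual degrees of freedom, checked on simulated data. Calls are Benjamini-Hochberg adjusted p under 0.05 over all 8918 genes in each comparison, also for the adjusted p printed beside single genes. The named genes are the 7 members, called genes of the pathway lists (up to 4 per list and comparison), Foxp3 and the 5 genes most like the members. Members and lists were chosen with earlier results of these data known. Of 10 comparisons, 1 (the contrast between the mutants, between systems) was added after the values had been seen. Alternatives were quantile and cyclic loess normalization, other filters, the mean of probe sets, log2 of intensity plus 50, each system alone, a replicate block, the small nucleolar RNA level as a covariate, and each array left out. Deviations of same-numbered arrays were correlated above 0.1 in 3 of 15 pairs of groups.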

Additional observations from a re-analysis of the deposited data

Results flagged for a closer look

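Several genes responded to the alleles differently in Tregs and in transduced cells, by a test of that difference itself (limma). For M176 against WT, the effect in Tregs minus the effect in transduced cells was 0.779 for Fdft1 (log2, SE 0.18, adjusted p = 0.0187) and -1.086 for Abca1 (SE 0.20, adjusted p = 0.00411). That was 1 of the 7 genes and 1 of the 37 others tested, where 5.49% of all genes were called.

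For M354 against M176, the difference between the systems was tested after the values had been seen. It was -1.215 for Msmo1, -1.105 for Hmgcs1, -0.884 for Fdft1, -0.825 for Sqle and -0.709 for Insig1. Among the other pathway genes it was -0.766 for Lipa, -0.751 for Npc2, -0.693 for Fntb, -0.645 for Mylip and -0.598 for Elovl5, with adjusted p from 0.00981 for Npc2 to 0.0444 for Fntb. That was 5 of the 7 genes and 5 of the 37 others tested, where 17.8% of all genes were called and 11.8% were called below 0. The calls held under 10 of 20 alternatives for Insig1, 11 of 20 for Lipa, 10 of 20 for Elovl5 and 9 of 19 for Fntb. Among the 5 other pathway genes the difference between M354 and M176 in Tregs ran from -0.85 for Npc2 to -0.45 for Elovl5, and in transduced cells none passed.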

How the results depend on the processing

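With 2 arrays per group, counts moved with single arrays. With each array left out in turn, the number of the 7 genes called ran from 2 to 7 for M354 against M176 Tregs, from 0 to 4 for M176 against WT Tregs, from 0 to 5 for WT Tregs against WT-transduced cells, from 0 to 2 for the M176 effect between systems and from 2 to 6 for the mutant contrast between systems. With the small nucleolar RNA level as a covariate the counts were 1, 0, 3, 0 and 1. Quantile and cyclic loess normalization each left 1 gene called between WT Tregs and WT-transduced cells.

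Other processing turned some directions. Fdft1 gave 0.038 and 0.074 for M354 against WT Tregs, and 0.046 and 0.022 for WT Tregs against WT-transduced cells, under quantile and cyclic loess normalization. Cyclic loess turned the M354 effect between systems to 0.017 for Fdft1 and 0.031 for Ebp. Between M176-transduced and WT-transduced cells, Insig1 gave 0.002 under quantile normalization and Sqle 0.035 with the covariate.

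With single arrays left out, M354 against WT Tregs ran from -0.928 to 0.607 for Idi1, from -0.089 to 0.061 for Fdft1, from -0.098 to 0.276 for Ebp and from -0.445 to 0.035 for Insig1. M176 against WT Tregs ran from -0.013 to 1.521 for Idi1. M176-transduced against WT-transduced cells ran from -0.081 to 0.197 for Hmgcs1, from -0.356 to 0.321 for Idi1, from -0.219 to 0.148 for Sqle, from -0.221 to 0.089 for Msmo1 and from -0.127 to 0.077 for Insig1. M354-transduced against M176-transduced cells ran from -0.083 to 0.061 for Ebp. The M354 effect between systems ran from -1.257 to 0.277 for Idi1 and from -0.269 to 0.104 for Ebp. A group left with 1 array was assumed to vary like the others.

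Over 15 pairs of groups, the deviations of same-numbered arrays had correlations from -0.551 to 0.25, above 0.1 in 3. Paired arrays with unlike numbers would give negative values, so whether samples were paired was not settled. With the replicate number as a block, 3 of the 7 genes were called between WT Tregs and WT-transduced cells in place of 4, and the other counts were the same, 6 for M354 against M176 Tregs, 3 for M176 against WT Tregs, 1 for the M176 effect, 5 for the mutant contrast between systems and 0 for the remaining comparisons.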
